A study of Mus musculus with 18 samples.

Results

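Transcripts of 10 channel genes linked to membrane force or cell volume were followed in mouse dendritic cells (DCs), antigen-presenting cells that crawl through tissue. The genes were chosen by name, with earlier results of these data known. They include the stretch-gated channels Piezo1, Tmem63a, and Tmem63b and the transient receptor potential (TRP) channels Trpv2, Trpv4, Trpm2, and Trpm7. The others are the volume-regulated anion channel subunits Lrrc8a and Lrrc8d and the potassium channel Kcnn4. All 10 are among the 29875 genes in the table and among the 13844 left for testing once edgeR had removed those with few reads. The DCs came from bone marrow of wild-type C57Bl6/J mice aged 8 to 12 weeks, grown with GM-CSF, and all groups shared 24 hours of lipopolysaccharide at 200 ng/ml from day 8. They were then loaded in migration chambers, either embedded in bovine collagen at 1.7, 2.6, 3.5, or 4.4 mg/ml or free of collagen (suspension), and RNA was taken 5 hours after a CCL19 gradient was introduced. There were 3 biological replicates of each of 6 groups, giving 12 collagen and 6 suspension libraries. The suspension groups are titled without CCL19 and plus CCL19, but their titles and library names give opposite CCL19 states, so they are named by title and no CCL19 direction is read. Each library is the RNA of a whole chamber of cells grown in culture, not of sorted single cells.

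Force-gated channels turn stretch of the plasma membrane into an inward flow of cations, often calcium, and in migrating leukocytes such currents are known to feed back on contractility and on the passage through narrow pores. Volume-regulated channels work in the other direction: when a cell swells, anion channels built from LRRC8 subunits and potassium channels let osmolytes and salt leave, and water follows. LRRC8A is the subunit every such anion channel needs, and LRRC8D is a partner that favours organic osmolytes. Trpm2 is best known for gating by ADP-ribose and calcium, not by force, and Kcnn4 opens with calcium, so the 10 genes share a place in ion and volume handling more than a single sensor mechanism.

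Trpv4, Trpm2, and Piezo1 were the channels that were lower in collagen than in suspension by the tests given in the next paragraphs, so the stretch around their transcription starts is shown. Each line holds 250 bases before to 50 bases after the start in RefSeq (GRCm38.p6), on the gene's own strand, at chr5:114658372-114658671 (minus strand) for Trpv4, chr10:77969823-77970122 (minus strand) for Trpm2, and chr8:122551280-122551579 (minus strand) for Piezo1. Capitals mark matches on either strand to one of 7 motifs searched: the GC box GGGCGG, the CCAAT box CCAAT, the TATA box TATAAA, the E-box CACGTG, the AP-1 site TGANTCA, the cAMP response element TGACGTCA, and an NFAT-type core TGGAAA.
Trpv4: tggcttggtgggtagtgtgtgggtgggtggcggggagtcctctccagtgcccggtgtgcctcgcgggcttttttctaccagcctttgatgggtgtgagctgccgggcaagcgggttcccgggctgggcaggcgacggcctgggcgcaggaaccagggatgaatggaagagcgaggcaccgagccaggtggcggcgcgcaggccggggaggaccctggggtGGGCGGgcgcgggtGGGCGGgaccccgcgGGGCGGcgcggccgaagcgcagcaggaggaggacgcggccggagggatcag
Trpm2: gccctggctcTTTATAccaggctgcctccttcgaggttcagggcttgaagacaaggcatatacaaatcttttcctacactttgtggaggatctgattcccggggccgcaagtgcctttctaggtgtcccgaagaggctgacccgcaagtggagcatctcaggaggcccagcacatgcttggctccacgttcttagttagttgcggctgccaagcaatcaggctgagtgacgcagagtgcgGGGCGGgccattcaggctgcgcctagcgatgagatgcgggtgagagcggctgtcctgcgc
Piezo1: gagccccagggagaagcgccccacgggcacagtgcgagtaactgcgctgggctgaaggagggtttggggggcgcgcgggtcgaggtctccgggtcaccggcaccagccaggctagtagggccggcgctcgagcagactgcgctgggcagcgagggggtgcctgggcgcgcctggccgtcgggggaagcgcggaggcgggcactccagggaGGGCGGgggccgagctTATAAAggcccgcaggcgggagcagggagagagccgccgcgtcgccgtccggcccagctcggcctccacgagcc
In the Trpv4 window the GC box was found 3 times and no other of these motifs. The Trpm2 window held 1 GC box and, on the opposite strand at position -240, 1 TATA box, and the Piezo1 window held 1 GC box and 1 TATA box, at position -24 from the start. No matches overlapped in these windows. In the first window listed for each of the 10 genes, 8 held a GC box, against 35.7% of 32851 promoter windows of the same length in the table. The E-box was in 3 of 10 (7.2% of all windows), CCAAT in 2 (37.4%), TATAAA in 2 (13.6%), and the cAMP response element in 1 (1.8%), whereas the AP-1 site (7.8%) and the NFAT-type core (21.4%) were in 0. A match describes letters and not a bound site.

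Total counts per library ranged from 13062944 to 28059839, which puts 3 counts at 0.0941 to 0.256 CPM (counts per 1000000 reads, on library sizes scaled by edgeR's TMM method). The summed level of 12 DC markers was high in every library, at 31953 to 99795 CPM in suspension and 43421 to 110763 CPM in collagen. Ccl22 and Cd74 had the highest means (28076 and 20885 CPM in collagen). Not every marker was abundant, since Zbtb46 held 37.1 to 67.3 CPM and Flt3 3.04 to 24.4 CPM. Flt3 was lower on average in collagen (6.26 CPM) than in suspension (13.5 CPM). The library names hold unlabelled fields read here as date and lane, and the 6 libraries of a replicate number share them. That makes the replicate a batch crossed with the groups, so each comparison was fitted without and with it as a block. In these names replicates 1 and 3 also share a run code, and replicate 2 has another. Replicate 3 stood apart in that Xist, made from the inactive X chromosome of females, had 0 counts in all its libraries, while replicates 1 and 2 had 29.3 to 229 CPM, although the study's methods describe male mice. Reads on exon bases that genes share cannot be assigned with certainty. Of the exon bases of Lrrc8a, 66.2% are shared with the same-strand gene Gm28035, which had at most 3 counts, so the level of Lrrc8a is uncertain. Of those of Piezo1, 24.6% lie opposite Ctu2, with at most 836 counts, and the strand setting of the counting is not given in the sources used here.

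Per kilobase of exon, the calcium-permeable channel Trpv2 had the highest level of the 10 genes, with a mean of 64.4 CPM per kb over all libraries (range 28.2 to 114). Tmem63a followed with a mean level of 24.0 CPM per kb and Kcnn4 with 15.6. Tmem63b had 11.5, Piezo1 8.38, and Lrrc8d 6.01 CPM per kb on average. Lower mean levels were found for Trpm7 (2.35 CPM per kb), Trpv4 (1.94), Lrrc8a (0.804), and Trpm2 (0.482), so Trpv4 and Trpm2 were among the 3 least abundant of the 10. The ranges of each gene and the next in this order overlapped across libraries. Within a library, Trpv2 was above Tmem63a, Tmem63a above Kcnn4, and Trpv4 above Lrrc8a in 18 of 18 libraries. Kcnn4 was above Tmem63b in 9 of 18 and Trpm7 above Trpv4 in 10 of 18, so these last pairs had no fixed order. The place of Lrrc8a in this order is uncertain, as 66.2% of its exon bases are shared with Gm28035.

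**Figure D1:**
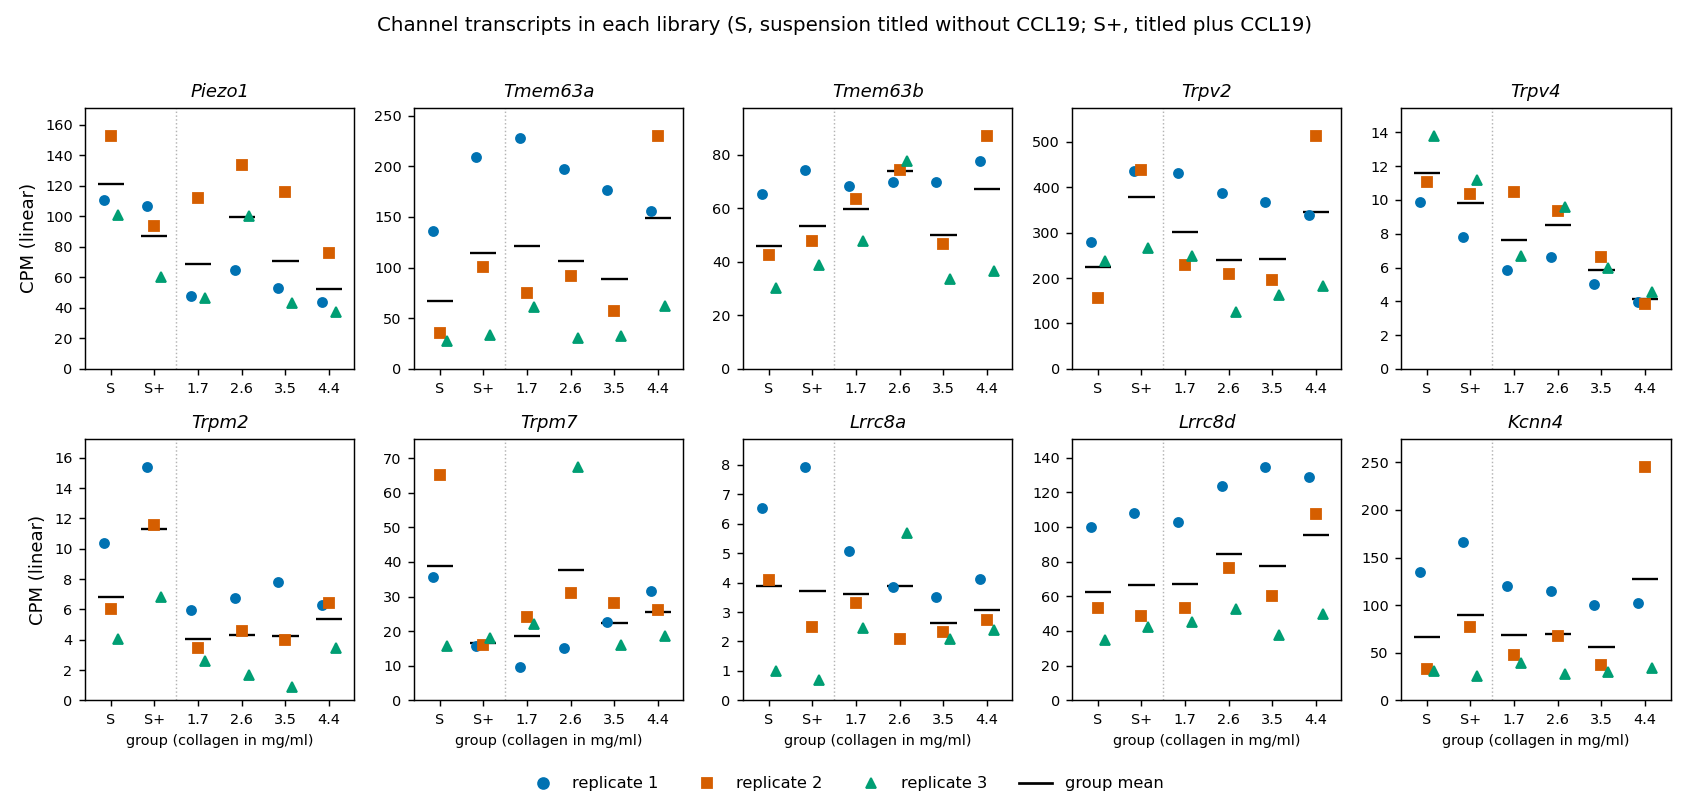
Level of each channel transcript in CPM (vertical axis, linear from 0) in all 18 libraries by group; symbols mark the replicate and bars the group mean. Trpv4 lies below every suspension library in all 3 libraries at 4.4 mg/ml, as do 9.25% of all genes tested. For Tmem63a, Kcnn4, Trpv2, and Lrrc8d every library of replicate 1 is above every library of replicate 3, as for 9.12% of all genes tested.

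To ask how the channels differed between cells in a gel and cells in suspension, group means were compared. The mean of the 4 collagen groups was set against the mean of the 2 suspension groups. All gels are titled as migration towards CCL19, while by titles as by library names 1 of the 2 suspension groups lacked it. The arms thus also differed in part in CCL19, and its part in these values was not tested. Trpv4 and Trpm2 were lower in collagen, and no member was higher. These 2 of 10 compare with 20.2% of all genes tested that were called at a false discovery rate (FDR) of 0.1, the threshold in the methods, and with 12.4% called lower. With the replicate block 4 of 10 members were called (34.8% of all genes), 3 of them lower (19.3% of all genes), namely Trpv4, Trpm2, and Piezo1, and 1 higher (15.6% of all genes), namely Lrrc8d. The 2790 genes behind the first share became 1550, 631, and 1431 without replicates 1, 2, and 3, and the 4823 with the block became 2690 without replicate 1. The shares called in either direction are near those of all genes, and the median log2 fold change of the 10 genes was -0.04, beside 0.00 over all genes tested. In bulk RNA, fewer cells of a type and less RNA per cell cannot be told apart.

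**Figure D2:**
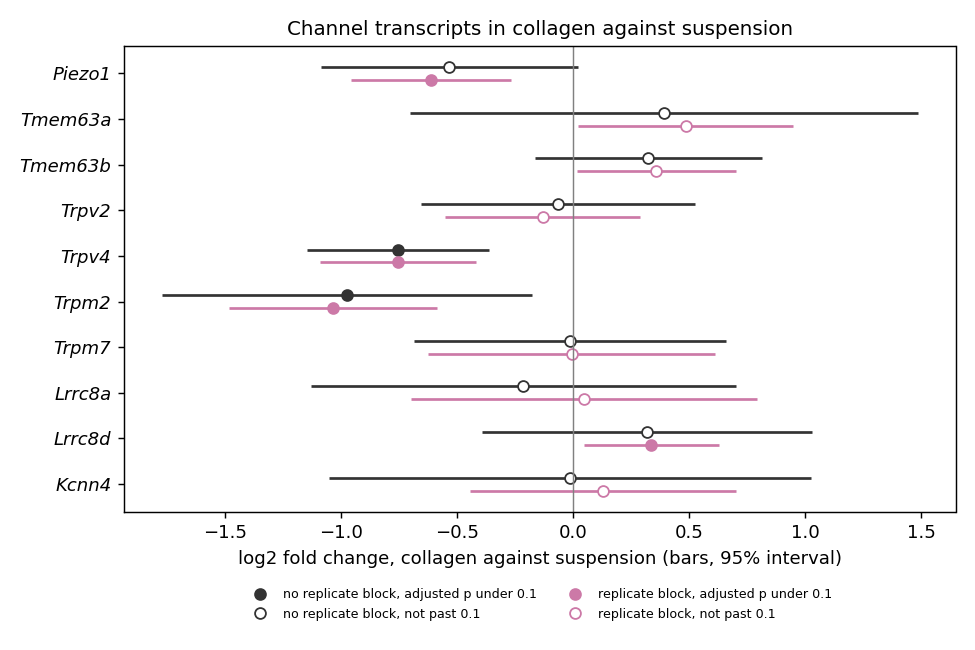
Log2 fold change in collagen against suspension for the 10 channels (horizontal axis), with 95% intervals, without (dark) and with (pink) the replicate block; filled points passed an adjusted p of 0.1. Trpv4 and Trpm2 are filled and left of 0 in both fits, while Piezo1 (left) and Lrrc8d (right) are filled with the block.

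Trpv4, an osmotically and mechanically activated cation channel (chr5:114622152-114658421, GRCm38, minus strand), was lower in collagen in both fits. Its 6 suspension libraries ranged from 7.82 to 13.8 CPM (median 10.7), and the 12 collagen libraries from 3.84 to 10.4 CPM (median 6.28). The highest collagen libraries lay within the suspension range, but the means differed in the same direction in 3 of 3 replicates. Trpv4 fell by 40.8% (log2 fold change -0.76, SE 0.19, adjusted p = 0.013, edgeR). With the block the log2 fold change was also -0.76 (SE 0.16, adjusted p = 0.0023), and no single library or replicate left out ended that call. Without the block, leaving out replicate 2 or replicate 3 ended it (-0.85, adjusted p = 0.129, and -0.65, adjusted p = 0.155). Leaving out the filter on low counts (-0.78, adjusted p = 0.106) or adding offsets for GC content and gene length (-0.49, adjusted p = 0.168) did so as well, and with both the offsets and the block Trpv4 was called (-0.49, adjusted p = 0.043).

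Across the gels the level of Trpv4 was lowest at the highest density. In replicates 1 to 3 it was 9.85, 11.1, and 13.8 CPM in suspension titled without CCL19 and 7.82, 10.4, and 11.2 CPM in suspension titled plus CCL19. It was 5.85, 10.4, and 6.67 CPM at 1.7 mg/ml and 6.60, 9.33, and 9.56 CPM at 2.6 mg/ml. The gels at 1.7 and 2.6 mg/ml thus overlapped the suspension range. At 3.5 mg/ml it was 5.01, 6.60, and 5.96 CPM, and at 4.4 mg/ml 3.97, 3.84, and 4.55 CPM. All 3 libraries at 4.4 mg/ml were below the lowest suspension library. This held for 1 of 10 members, near the 9.25% of all genes tested that had the pattern. These levels rest on 45 to 305 reads per collagen library, so counting error is a visible part of their spread.

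Trpm2, a calcium channel opened by ADP-ribose under oxidative stress (chr10:77907722-77970563, minus strand), was the other channel lower in both fits. It was the least abundant of the 10 per kilobase, at 12 to 301 reads per library. Suspension libraries held 4.06 to 15.4 CPM (median 8.60) and collagen libraries 0.894 to 7.82 CPM (median 4.28), so the groups overlapped while the means were lower in collagen in 3 of 3 replicates. Trpm2 fell by 49.2% (log2 fold change -0.98, SE 0.38, adjusted p = 0.097), close to the threshold, and with the block by 51.3% (-1.04, SE 0.21, adjusted p = 0.0018). In replicates 1 to 3 the level was 10.4, 6.01, and 4.06 CPM in suspension titled without CCL19 and 15.4, 11.6, and 6.85 CPM in suspension titled plus CCL19. The gels held 5.93, 3.48, and 2.63 CPM at 1.7 mg/ml, 6.72, 4.55, and 1.69 CPM at 2.6 mg/ml, 7.82, 4.003, and 0.894 CPM at 3.5 mg/ml, and 6.27, 6.40, and 3.45 CPM at 4.4 mg/ml. Replicate 1 was the highest in 5 of 6 groups and replicate 3 the lowest in 6 of 6, and within each replicate every gel but replicate 2 at 4.4 mg/ml was below both suspension libraries. Without the block, the call was lost in 12 of the 18 fits that left out 1 library, and was kept only without replicate 3 of either suspension group, replicate 1 of the gels at 1.7, 2.6, or 3.5 mg/ml, or replicate 3 at 3.5 mg/ml. It was also lost without the whole of replicate 1 or 2 and with GC and length offsets (-0.75, adjusted p = 0.148) (range over the fits without a library or replicate -1.18 to -0.74, adjusted p 0.047 to 0.424). With the block it held in all fits without a library or replicate (-1.14 to -0.90) and with the offsets added (-0.80, adjusted p = 0.0054).

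The other TRP channels had no call. Trpm7, a magnesium- and calcium-permeable channel with its own kinase domain, ranged from 15.6 to 65.3 CPM in suspension (median 16.99) and from 9.71 to 67.4 CPM in collagen (median 23.4). Its highest libraries were replicate 2 of suspension titled without CCL19 and replicate 3 at 2.6 mg/ml, in opposite arms. The log2 fold change was -0.01 (95% interval -0.69 to 0.66, adjusted p = 0.985). Trpv2, known from immune cells as a channel sensitive to heat and stretch, ranged from 156 to 437 CPM in suspension (median 274) and from 126 to 513 CPM in collagen (median 238), with a log2 fold change of -0.07 (95% interval -0.66 to 0.52, adjusted p = 0.908).

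Piezo1, a large cation channel that opens under membrane tension (chr8:122481698-122551329, minus strand), was lower in collagen with the block. In replicates 1 to 3 its level was 111, 153, and 101 CPM in suspension titled without CCL19 and 107, 93.6, and 60.3 CPM in suspension titled plus CCL19. The gels held 47.8, 112, and 46.6 CPM at 1.7 mg/ml, 64.9, 133, and 100.5 CPM at 2.6 mg/ml, 53.1, 116, and 43.4 CPM at 3.5 mg/ml, and 43.5, 76.0, and 37.4 CPM at 4.4 mg/ml. Replicate 2 was the highest in 5 of 6 groups, and in replicate 1 each gel lay below both suspension libraries. Without the block the log2 fold change was -0.53 (SE 0.26, 95% interval -1.09 to 0.02, adjusted p = 0.196). With the block Piezo1 fell by 34.6% (-0.61, SE 0.16, adjusted p = 0.011). That call was kept in 18 of 18 fits without 1 library and was lost without replicate 1 (-0.33, adjusted p = 0.336) and with GC and length offsets added to the block (-0.29, adjusted p = 0.177). The mean log2 CPM in collagen minus that in suspension was -1.07, -0.16, and -0.57 in replicates 1 to 3.

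Tmem63a and Tmem63b, of the family of high-threshold stretch-activated channels related to plant OSCA channels, were higher on average in collagen in 3 of 3 replicates but did not pass the test over the 4 gels. Tmem63a ranged from 28.1 to 209 CPM in suspension and from 30.3 to 230.1 CPM in collagen (medians 68.4 and 83.2 CPM), a nearly complete overlap. Its log2 fold change was 0.39 (95% interval -0.71 to 1.48, adjusted p = 0.674), and 0.48 with the block (95% interval 0.02 to 0.95, adjusted p = 0.113). Tmem63b ranged from 30.1 to 74.2 CPM in suspension and from 33.4 to 87.1 CPM in collagen (medians 45.0 and 69.0 CPM), with a log2 fold change of 0.32 (95% interval -0.17 to 0.81, adjusted p = 0.394), and 0.36 with the block (adjusted p = 0.116). With GC and length offsets Tmem63b was called higher (0.59, adjusted p = 0.064). Both were called higher with the offsets and the block (Tmem63a 0.70, adjusted p = 0.0074, Tmem63b 0.62, adjusted p = 0.011) and in DESeq2 with the block (0.53, adjusted p = 0.072, and 0.39, adjusted p = 0.061). Of the exon bases of Tmem63b, 7.73% lie opposite Mrpl14 and Gm16172.

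The volume-regulated anion channel subunits differed from each other in level and spread. Lrrc8d, which shapes the channel's preference for organic osmolytes (chr5:105699969-105832436, plus strand), ranged from 34.6 to 108 CPM in suspension (median 51.0) and from 37.6 to 134 CPM in collagen (median 68.4). Its spread lay between replicates, since replicate 1 held 99.8 to 134 CPM and replicate 3 only 34.6 to 52.8 CPM in all groups. Without the block the log2 fold change was 0.32 (SE 0.34, adjusted p = 0.586), and with the block Lrrc8d rose by 26.2% (0.34, SE 0.14, adjusted p = 0.082). This call was lost without any 1 of the 3 replicates and in 11 of the 18 fits without 1 library, those that left out any of the 6 suspension libraries, replicate 1 or 3 at 1.7 mg/ml, replicate 2 at 2.6 mg/ml, or replicate 1 or 2 at 3.5 mg/ml (0.26 to 0.42, adjusted p up to 0.303).

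Lrrc8a, the subunit that every channel of this class needs, was counted at 0.705 to 7.92 CPM in suspension and 2.08 to 5.68 CPM in collagen. Its true level is uncertain, as 66.2% of its exon bases are shared with Gm28035. Replicate 3 of both suspension groups had the lowest values, 0.985 and 0.705 CPM, from 17 reads each. The log2 fold change was -0.22 (95% interval -1.13 to 0.70, adjusted p = 0.793) and 0.05 with the block (95% interval -0.70 to 0.79), so its direction depended on the fit. Kcnn4, the calcium-activated potassium channel KCa3.1 that lets potassium leave during volume decrease, ranged from 25.4 to 166 CPM in suspension and from 27.2 to 245 CPM in collagen. Its log2 fold change was -0.02 (95% interval -1.05 to 1.02, adjusted p = 0.990) and 0.13 with the block (95% interval -0.45 to 0.70).

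Each gel density was also set against suspension, to ask at which density the channels moved. These comparisons share the same 6 suspension libraries, so their values are not independent of each other. At 1.7 mg/ml edgeR called 0 of 10 members without the block (0.0361% of all genes) and 0 with it (2.91%). At an unadjusted p under 0.05 there were 0 and 2 members, beside 1113 and 2176 of all genes. DESeq2, run as an alternative, called 0 without and 2 with the block, beside 141 and 1095 of all genes. The largest difference there was in Trpm2 (log2 fold change -1.13 without the block, adjusted p = 0.656, and -1.11 with it, adjusted p = 0.102). At 2.6 mg/ml 0 members had an unadjusted p under 0.05 without the block (2801 of all genes), and DESeq2 called 0 (1828). There edgeR called 0 members without the block (7.87% of all genes) and 2 with it (21.6%). The share of all genes rested on few libraries, since the 1090 genes called without the block became 63 without replicate 3 and 335 without replicate 2 at 2.6 mg/ml, 394 and 625 without replicates 2 and 3 titled plus CCL19, 464 without replicate 3 titled without CCL19, and 0 and 4 without the whole of replicates 2 and 3. With the block 2990 became 1047 and 1878 without replicates 3 and 2 at 2.6 mg/ml, and 665 and 1821 without the whole of those replicates.

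**Figure D3:**
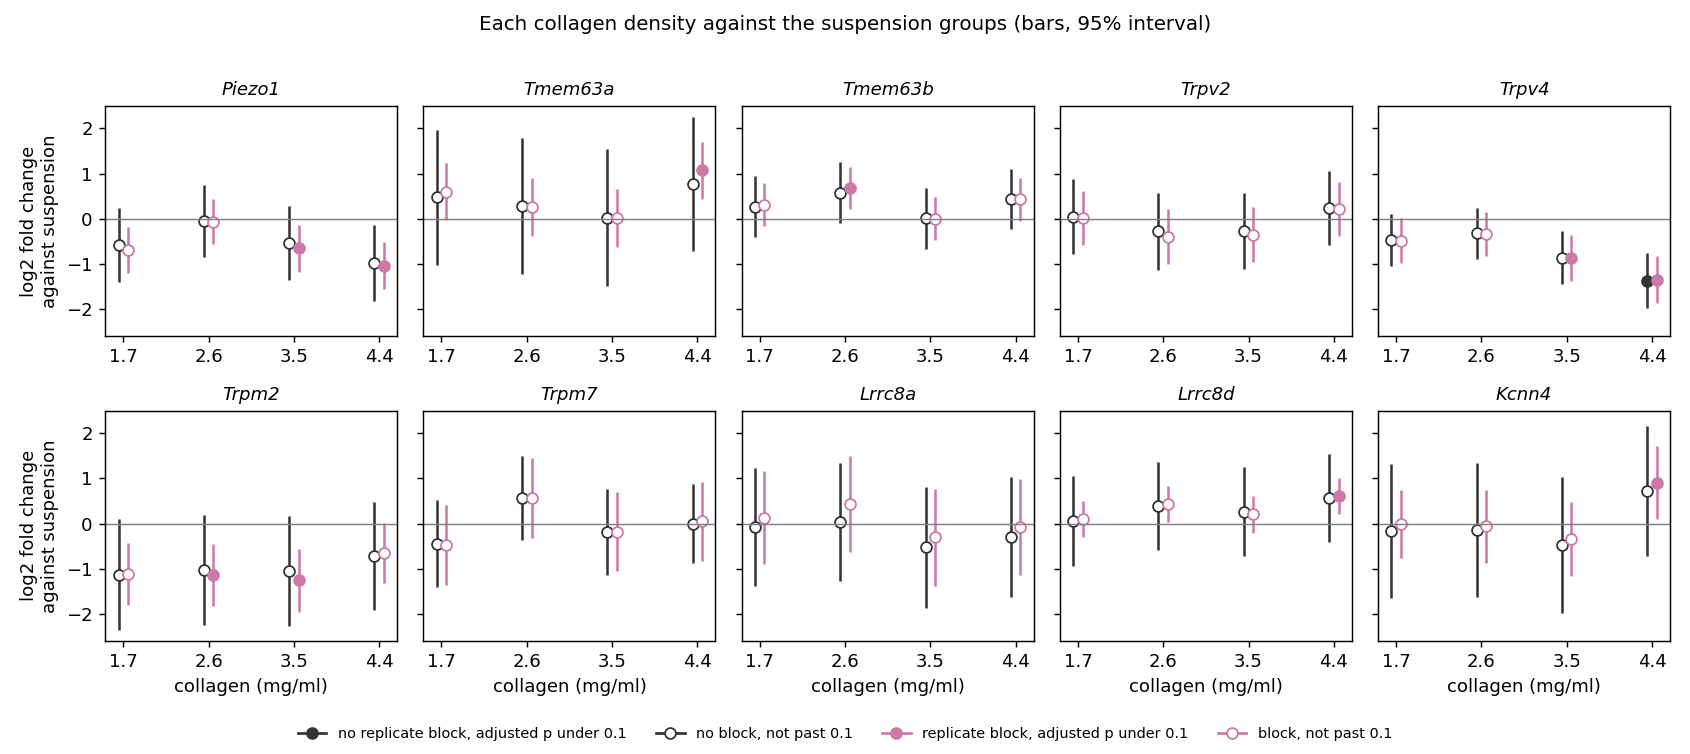
Log2 fold change of each channel at 4 collagen densities against suspension (vertical axis), with 95% intervals, without (dark) and with (pink) the block; filled points passed an adjusted p of 0.1. Trpv4 is filled at 4.4 mg/ml in both fits, and Piezo1, Tmem63a, Lrrc8d, and Kcnn4 are filled there with the block.

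The channels called at 2.6 mg/ml with the block were Trpm2, which was lower (-1.13, SE 0.33, adjusted p = 0.028), and Tmem63b, which was higher (0.68, SE 0.22, adjusted p = 0.049). In replicates 1 to 3 at that density Trpm2 held 6.72, 4.55, and 1.69 CPM and Tmem63b 70.0, 74.4, and 77.9 CPM. The Tmem63b libraries there were close together and above the suspension libraries of their own replicate in 2 of 3 replicates. Without replicate 3 at 2.6 mg/ml both calls were lost (Trpm2 -0.93, adjusted p = 0.178, Tmem63b 0.38, adjusted p = 0.389). Both were also lost without the whole of replicate 2 (-1.25, adjusted p = 0.115, and 0.66, adjusted p = 0.165) or replicate 3 (-0.89, adjusted p = 0.177, and 0.37, adjusted p = 0.469). The Tmem63b call was also lost without replicate 2 at 2.6 mg/ml, replicate 2 titled plus CCL19, or replicate 3 titled without CCL19 (0.63 to 0.74, adjusted p 0.103 to 0.106).

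At 3.5 mg/ml 1 member had an unadjusted p under 0.05 without the block (2437 of all genes), and DESeq2 called 1, Trpv4 (1343). There edgeR called 0 of 10 members without the block (4.9% of all genes). The 679 genes called there without the block became 22, 236, and 100 without replicates 1, 2, and 3 at 3.5 mg/ml, 264 to 409 without any 1 suspension library, 437 and 404 without replicate 2 at 1.7 and 2.6 mg/ml, and 0 to 3 without a whole replicate. With the block 2551 became 895, 1203, and 1073 without replicates 1, 2, and 3 at 3.5 mg/ml, and 198, 1439, and 1057 without the whole of each. Of all genes called there without the block 40.2% were higher, and 55.7% with GC and length offsets. With the block 3 members were lower (18.4% of all genes were called), namely Trpm2 (-1.26, SE 0.33, adjusted p = 0.022), Trpv4 (-0.86, SE 0.24, adjusted p = 0.030), and Piezo1 (-0.65, SE 0.24, adjusted p = 0.089). Trpm2 and Trpv4 lost their calls without any 1 of the 3 replicates, and Piezo1 without replicate 1 or 3. Trpv4 also lost it without any 1 library at 3.5 mg/ml (-0.89 to -0.81, adjusted p 0.107 to 0.141) and Trpm2 without replicate 3 at 3.5 mg/ml (-0.89, adjusted p = 0.142). Piezo1 lost it in 12 of 18 fits without 1 library (adjusted p up to 0.330), and kept it without replicate 2 of either suspension group, replicate 1 or 3 at 2.6 mg/ml, or replicate 1 or 2 at 4.4 mg/ml. With GC and length offsets added to the block only Trpm2 was called (-0.94, adjusted p = 0.053).

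At 4.4 mg/ml Trpv4 was the only member called without the block (14.8% of all genes). The 2054 genes behind that share became 966 without replicate 1 at 4.4 mg/ml, and 106 and 946 without the whole of replicates 2 and 3. It fell by 61.2% (log2 fold change -1.37, SE 0.29, adjusted p = 0.0081), and by 60.7% with the block (-1.35, adjusted p = 0.0010). The call was kept with GC and length offsets (-1.14, adjusted p = 0.041) and without any 1 library, and was lost only without the whole of replicate 2 (-1.32, adjusted p = 0.187) among the settings tried.

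With the block 5 of 10 members were called at 4.4 mg/ml (31.9% of all genes, or 4420, which became 2553 and 2851 without the whole of replicates 1 and 2). Piezo1 was lower (-1.04, SE 0.25, adjusted p = 0.0059, and -0.71 with GC and length offsets added, adjusted p = 0.030), a call lost without replicate 1 (-0.79, adjusted p = 0.112). Tmem63a (1.07, SE 0.30, adjusted p = 0.016), Lrrc8d (0.61, SE 0.19, adjusted p = 0.027), and Kcnn4 (0.91, SE 0.39, adjusted p = 0.096) were higher. In the same fit 5 of 8 macrophage markers were higher and 0 lower at 4.4 mg/ml (median log2 fold change 1.17), and their part in these 3 channels was not tested. All 3 calls rested on replicate 2 at 4.4 mg/ml. In that library Tmem63a reached 230.1 CPM against 35.7 and 101 CPM in the suspension libraries of the replicate, Lrrc8d 107 CPM against 53.5 and 48.5 CPM, and Kcnn4 245 CPM against 33.3 and 76.7 CPM. Without it Tmem63a was at 0.49 (adjusted p = 0.260), Lrrc8d at 0.36 (adjusted p = 0.208), and Kcnn4 at -0.15 (adjusted p = 0.769). The Kcnn4 call was lost in 11 of 18 fits without 1 library, and kept without replicate 1 or 3 titled without CCL19, replicate 1 titled plus CCL19, or replicate 1 or 3 at 2.6 or 4.4 mg/ml. In replicate 1 Kcnn4 was 102 CPM at 4.4 mg/ml and 135 and 166 CPM in suspension, the opposite order.

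Among the gels, the linear trend over the 4 densities gave 0 members in edgeR without the block (0.00722% of all genes, with 1 member at an unadjusted p under 0.05) and 0 with it (1.45%, also with 1). DESeq2 called 0, and 1 with the block. The contrast of 4.4 against 1.7 mg/ml gave 0 members (0.00722% of all genes, with 1 at an unadjusted p under 0.05) and 0 with the block (1.73%, with 2), and in DESeq2 0, and 1 with the block. With the block and without 1 library or replicate, the count of all genes ran from 0 to 606 in the trend (201 with all libraries), from 0 to 622 (239) in the contrast of 4.4 against 1.7 mg/ml, and from 10 to 760 (403) in that of 1.7 mg/ml against suspension. The member called by DESeq2 with the block was Trpv4 in both. Its slope was -0.36 log2 units per mg/ml (SE 0.11, adjusted p = 0.422) in edgeR, -0.35 with the block (adjusted p = 0.116), and -0.33 in DESeq2 with the block (adjusted p = 0.017). Its log2 fold change at 4.4 against 1.7 mg/ml was -0.89 (SE 0.31, adjusted p = 0.465), -0.86 with the block (adjusted p = 0.143), and -0.83 in DESeq2 with the block (adjusted p = 0.046). The other 9 members had slopes from -0.19 (Piezo1) to 0.26 (Kcnn4) log2 units per mg/ml without the block.

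Between the suspension groups edgeR called 0 members in either fit, as it did of all genes (0% and 0%), and DESeq2 called 0 members in either, with 0 of all genes called without and 194 with the block. The count of all genes in edgeR with the block became 1014 without replicate 3 titled without CCL19. At an unadjusted p under 0.05 there was 1 member without the block and 4 with it, among 855 and 1960 of all genes. The member without the block was Trpm7. With it they were Trpm7 (log2 fold change -1.16), Trpm2 (0.76), Tmem63a (0.76), and Trpv2 (0.71). The largest difference was in Trpm7, at 35.5, 65.3, and 15.6 CPM in replicates 1 to 3 titled without CCL19 and 15.8, 16.02, and 17.97 CPM titled plus CCL19 (log2 fold change -1.22, SE 0.53, adjusted p = 0.761). Replicate 3 did not share that order.

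The replicate, which goes with library name fields read as a date and a lane, separated several channels. Xist also differed between replicates 1 and 3, and what set the replicates apart was not tested. In Trpv2, Lrrc8d, Tmem63a, and Kcnn4 every library of replicate 1 was above every library of replicate 3, a pattern seen in 9.12% of all genes tested. Kcnn4 ranged from 100.4 to 166 CPM in replicate 1 and from 25.4 to 38.8 CPM in replicate 3, and Tmem63a from 136 to 228 and from 28.1 to 62.1 CPM. Summed macrophage markers also separated these replicates. Their 8 genes, which include Csf1r, Adgre1, and C1qb, summed to 1471 to 2235 CPM in replicate 1 and to 333 to 796 CPM in replicate 3, and the part of macrophage-type RNA in these channel levels was not tested. Collagen means were below suspension means in 3 of 3 replicates for Piezo1, Trpv4, and Trpm2 (26.7% of all genes) and above in 3 of 3 for Lrrc8d, Tmem63a, and Tmem63b (24.3%). Both shares are close to those of all genes.

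Among markers of other cells, only the eosinophil list had every tested gene called lower in collagen. The 10 eosinophil markers, which include Prg2, Epx, and Ear1, summed to 121 to 1385 CPM in suspension and 14.8 to 171 CPM in collagen, and 9 of 9 tested were called lower. The 10 neutrophil markers summed to 636 to 9766 CPM in suspension and 1046 to 5174 CPM in collagen. Of these 3 of 10 were called lower, beside 12.4% of all genes. By log2 fold change 8 were lower and 2 higher, and the means of Camp (49.5 and 57.7 CPM in suspension and collagen) and S100a9 (436 and 529 CPM) were higher in collagen. The part of eosinophil and neutrophil RNA in the lower Trpv4, Trpm2, and Piezo1 was not tested. In each suspension group replicate 1 had the lowest eosinophil sum (121 and 152 CPM) and the lowest neutrophil sum (636 and 727 CPM). Within each of these groups it also had the lowest Trpv4 (9.85 and 7.82 CPM) and the highest Trpm2 (10.4 and 15.4 CPM). Piezo1 in that replicate was in the middle in the group titled without CCL19 (111 CPM) and the highest in the other (107 CPM). In each gel group replicate 2 had the highest eosinophil sum (69.7, 100.1, 116, and 171 CPM from 1.7 to 4.4 mg/ml). Outside 4.4 mg/ml it also had the highest neutrophil sum. Its Trpv4 was the highest at 1.7 and 3.5 mg/ml, the middle value at 2.6 mg/ml, and the lowest at 4.4 mg/ml (3.84 CPM). Its Piezo1 was the highest in each gel group, and its Trpm2 only at 4.4 mg/ml. No marker of either list was at 0 in all libraries. The 8 macrophage markers summed to 359 to 1986 CPM in suspension and 333 to 2235 CPM in collagen. Without the block 0 of 8 were called in edgeR, and with it 5 of 8 were higher in collagen, with a median log2 fold change of 0.75. Basophil and mast cell markers summed to 160.5 to 419 CPM in suspension and 96.4 to 478 CPM in collagen (1 of 8 called higher and 1 lower). Fibroblast markers summed to 1.08 to 10.7 CPM in suspension (median 7.31) and 1.25 to 119.8 CPM in collagen (median 4.84). The 119.8 CPM was in replicate 2 at 2.6 mg/ml, and the next highest gel library held 14.1 CPM. Lymphocyte markers summed to 0.850 to 13.4 CPM in suspension and 0.840 to 7.59 CPM in collagen, and red cell markers to at most 7.07 CPM.

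**Figure D4:**
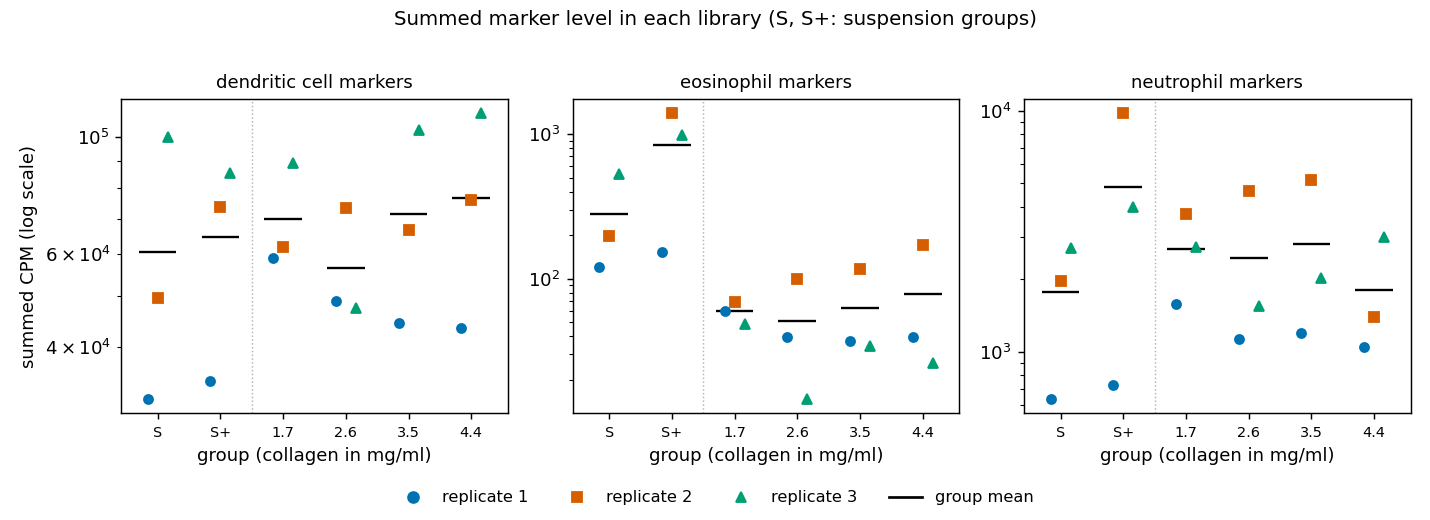
Summed CPM of dendritic cell, eosinophil, and neutrophil markers (vertical axes, log scale) in all 18 libraries by group; symbols mark the replicate and bars the group mean. Eosinophil sums are mostly higher in suspension (121 to 1385 CPM) than in collagen (14.8 to 171 CPM), with a small overlap, while dendritic cell sums overlap.

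Other genes of the same pathways were counted as lists. Among 25 further genes of volume regulation, 21 were tested, 4 rose and 1 fell in collagen against suspension, with a median log2 fold change of 0.03, beside 0.00 over all genes. These 5 of 21 compare with 20.2% of all genes called. With the block the count was again 5 of 21 (4 higher and 1 lower), beside 34.8% of all genes. Those with the largest rise were Slc5a3, an inositol transporter, Akr1b3, the aldose reductase that makes sorbitol, and Nfat5, a transcription factor known from the response to high tonicity. Slc5a3 went from 5.24 ± 4.01 CPM in suspension (SD, n = 6) to 22.1 ± 19.05 CPM in collagen (SD, n = 12), a log2 fold change of 1.92 (SE 0.49, adjusted p = 0.016). Akr1b3 went from 13.7 ± 6.30 to 41.8 ± 18.2 CPM (1.58, SE 0.29, adjusted p = 0.0028) and Nfat5 from 139.8 ± 120.1 to 291 ± 156 CPM (1.09, SE 0.32, adjusted p = 0.034). At 4.4 mg/ml against suspension their log2 fold changes were 2.65, 2.14, and 1.70 (adjusted p = 0.012, 0.0028, and 0.018). The other gene that rose was Aqp9, a channel for water and small solutes (0.51, SE 0.19, adjusted p = 0.081).

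The taurine transporter Slc6a6, another gene of this list, was not called, at 494 ± 278 CPM in suspension and 403 ± 161 CPM in collagen. It was chosen after its values were seen. Lrrc8b, another partner of Lrrc8a, fell from 9.32 ± 4.55 to 5.69 ± 1.61 CPM (-0.69, SE 0.27, adjusted p = 0.099). Of the anion channel subunits named here, Lrrc8b was called lower in both fits, Lrrc8d higher with the block, and Lrrc8a in neither direction. In the trend over the gel densities edgeR called 0 of these 21 genes in either fit.

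Of 19 other mechanosensitive channels and partners, 16 were in the table and 6 were tested, since the other 10, among them Piezo2 and several TRP channels, had at most 0.599 CPM in any library. In collagen 2 fell and 1 rose, beside 20.2% of all genes called and 12.4% called lower. The median log2 fold change was -0.45, beside 0.00 over all genes. With the block again 2 fell and 1 rose, or 3 of 6 beside 34.8% of all genes. Pkd1, the polycystin that pairs with the channel Pkd2, fell from 65.8 ± 39.6 CPM in suspension to 25.2 ± 15.4 CPM in collagen (-1.51, SE 0.36, adjusted p = 0.012). Pkd2 fell from 7.65 ± 3.55 to 4.15 ± 2.25 CPM (-0.90, SE 0.35, adjusted p = 0.0998). Mdfic, described as an auxiliary subunit of PIEZO channels, rose from 53.4 ± 21.5 to 90.4 ± 34.7 CPM (0.80, SE 0.24, adjusted p = 0.034), while Piezo1 itself was lower with the block.

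Of 21 genes of calcium entry and calcineurin signalling, all were tested, 3 fell and 1 rose in collagen, or 4 of 21 beside 20.2% of all genes. Orai3, a pore subunit of store-operated calcium channels, fell from 69.6 ± 11.9 to 35.4 ± 10.3 CPM (-1.0003, SE 0.15, adjusted p = 0.000904). The inositol trisphosphate receptor Itpr3 fell from 30.9 ± 21.3 to 12.1 ± 6.74 CPM (-1.36, SE 0.44, adjusted p = 0.050), and the calcineurin-responsive factor Nfatc1 from 45.6 ± 5.81 to 25.1 ± 8.82 CPM (-0.88, SE 0.23, adjusted p = 0.018). Ppp3r1, the regulatory subunit of calcineurin, rose from 112 ± 22.8 to 169 ± 47.4 CPM (0.60, SE 0.20, adjusted p = 0.053). With the block 4 rose and 3 fell, or 7 of 21 beside 34.8% of all genes, with Stim2 (0.46, adjusted p = 0.097) and Atp2b1 (0.56, adjusted p = 0.090) among those that rose. The median log2 fold change of the list was -0.12 without the block, beside 0.00 over all genes.

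The genes with a pattern most like that of the called channels were found by the smallest mean absolute difference of gene-centred log2 CPM over the 18 libraries. For Trpv4 these were Mbtps1, with a mean difference of 0.15 log2 units, and Cenpo, with 0.17, where the median over all genes was 0.67. As these genes were picked for their likeness over the same libraries, a lower collagen mean follows from the choice. Mbtps1 went from 99.1 CPM in suspension to 54.8 CPM in collagen on average (adjusted p = 0.0027, edgeR). Cenpo went from 7.36 to 5.24 CPM and was not called (adjusted p = 0.132). For Trpm2 they were Selenon and Slc43a2, both at 0.31 log2 units, where the median over all genes was 0.89. Slc43a2 went from 115 to 43.8 CPM (adjusted p = 0.034, edgeR). Selenon went from 72.9 to 52.1 CPM and was not called (adjusted p = 0.430).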

How the data were processed

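RNA was sequenced from 18 libraries of mouse bone marrow-derived DCs (TruSeq Stranded mRNA, 50-base single-end reads on a HiSeq 2000). The authors aligned reads with STAR 2.7.0f to GRCm38 and deposited counts per gene as whole numbers. The methods name RSEM for TPM values, and whether it also made the deposited counts, and with which strand setting, is not given in the sources used here.

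Counts were filtered with edgeR's filterByExpr, scaled by TMM, and fitted over all 18 libraries with edgeR 4.0.16's quasi-likelihood test (R 4.3.3) at a Benjamini-Hochberg FDR of 0.1, without the replicate block, and with it beside it. CPM are on TMM-scaled library sizes. SDs are between libraries, and nothing in the labels beyond "biol rep" says which mice or cultures the replicates came from. Same-numbered libraries share name fields read as a date and a lane. Their deviations from group means correlated at a mean of 0.43 (-0.15 to 0.85), against -0.26 for other pairs, so the number was taken to pair them. Of 153 library pairs 0 held identical counts. edgeR's biological coefficient of variation, its measure of spread between replicates, fell to 33.1% from 49.0% when the block was added. Alternatives were DESeq2 1.42.0, RLE size factors, no filter, an FDR of 0.05, GC and length offsets, only the libraries of the groups compared, and fits without each library or replicate. Scripts were tested on simulated counts.

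The genes shown and all lists were chosen with earlier results of these data known. Pathway genes were named where called in collagen against suspension, the density trend, or 4.4 against 1.7 mg/ml in either fit, at most 6 of each list, largest change first, and for each member called without the block the 2 genes most alike in pattern. Promoters came from RefSeq (10 of 10 genes matched, in 13 windows).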

Additional observations from a re-analysis of the deposited data

How the results depend on the processing

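The replicate numbers go with library name fields read as a date and a lane, so the fit with the replicate block is the closest alternative. The count of channels called in collagen against suspension went from 2 to 4 with the block (1 higher, 3 lower). All genes called went from 2790 to 4823 of 13844. The channel count was 6 in DESeq2 with the block (3 higher, 3 lower, beside 5381 of all genes). It was 5 with GC and length offsets and the block (3 higher, 2 lower, beside 5151), and 1 with the offsets alone (Tmem63b, higher, beside 2874). It was 1 (lower) at an FDR of 0.05 (beside 1793), with RLE size factors (2735), and with no filter on low counts (2715 of 29875). At 1.7 mg/ml DESeq2 with the block called 2, beside 1095 of all genes. At 2.6 mg/ml the count was 2 with the block in edgeR, DESeq2, and the offsets, beside 2990, 3665, and 3503 of all genes. With the offsets alone it was 1, beside 1186. At 3.5 mg/ml it was 3 with the block in edgeR and DESeq2, beside 2551 and 3200 of all genes. It was 1 in DESeq2 without the block (1343) and 1 with the offsets and the block (2466). At 4.4 mg/ml it was 5 with the block in edgeR and DESeq2, beside 4420 and 5023 of all genes. It was 6 with the offsets and the block (4 higher, 2 lower, beside 4867), and 2 with no filter (2384 of 29875). DESeq2 with the block called 1 in the trend and 1 at 4.4 against 1.7 mg/ml, beside 811 and 918 of all genes. Without 1 library or replicate the collagen count ran from 0 (without replicate 2) to 2, and the count at 4.4 mg/ml from 0 (without replicate 2) to 3 (without replicate 1). The cause was not tested.

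Directions that changed in collagen against suspension all belonged to channels with no call there. Trpv2 was at 0.12 with the offsets and 0.080 with the block added. Trpm7 was at 0.017 in DESeq2 and with RLE, and 0.025 in DESeq2 with the block. Lrrc8a was at 0.046 with the block, 0.094 in DESeq2 with the block, 0.030 with the offsets, and 0.23 with both. Kcnn4 was at 0.13 with the block, 0.045 in DESeq2, 0.17 in DESeq2 with the block, 0.044 with RLE, 0.16 with the offsets, and 0.31 with both. Without 1 library or replicate, the values ran from -0.20 to 0.10 for Trpv2, -0.29 to 0.30 for Trpm7, -0.66 to 0.54 for Lrrc8a, and -0.31 to 0.53 for Kcnn4, and with the block from -0.27 to 0.086, -0.30 to 0.25, -0.60 to 0.69, and -0.15 to 0.44. Kcnn4 at 4.4 mg/ml ran from -0.36 to 1.90, and from -0.15 to 1.58 with the block.

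Scaling by total counts in place of TMM moves the median log2 fold change of all genes in collagen against suspension to -0.15. Trpm2, Lrrc8a, and Trpv4 rest on as few as 12, 17, and 45 reads in a library, where 3 counts are 0.0941 to 0.256 CPM, and counting error and replicates limit what could be seen.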
